A study of Mus musculus and Mus musculus
Rattus norvegicus with 30 samples.

Results

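Ebf1, Trh, Osm, Adgra2, Calca, Liph and Rasgrp2 are 7 of the 19919 genes counted in every mouse embryonic stem cell (mESC) RNA library. They were selected on the contrast between cells that overexpress one of 7 mutated forms of rat Cdx2 and cells that overexpress intact rat Cdx2, where their differences were among the largest. That contrast is therefore given below as values only. Comparisons without the libraries of that contrast were tested. They are the change from wild-type (WT) cells to mouse Cdx2, and the response on each parental genome of a mouse-rat hybrid cell. The first is not independent of the choice, because the paper reports highly correlated transcriptomes under mouse and rat Cdx2.

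The study asked whether residues that changed in the mouse homeodomain alter how Cdx2 regulates genes. From cell morphology and correlations of whole transcriptomes, the paper proposes that none of the changes altered Cdx2 function in mESCs. The counts of called genes below are a different measure. All cells were kept in N2B27-based medium with PD0325901, Chir99021 and mLIF, which holds ESCs undifferentiated, so every group shared this background. Transgenes sat in lentiviral vectors switched on by doxycycline (DOX), which was given for 48 h to the cells with intact Cdx2; the length for the mutant lines was not given in the sources used here. RNA was sequenced from 2 libraries each of WT, mCdx2-OE (mouse Cdx2), rCdx2-OE (rat Cdx2) and 7 lines with rat Cdx2 carrying mouse states at 3 sites. Change 1 turns a tyrosine into phenylalanine, change 2 an alanine into serine, and change 3 removes an asparagine. R1-OE, R2-OE and R3-OE carry 1 change, R12-OE, R13-OE and R23-OE carry 2, and R123-OE carries all 3 and so has the mouse state at each site. RMES cells hold 1 haploid mouse and 1 haploid rat genome, and gave 2 WT libraries, 1 mCdx2-OE and 1 rCdx2-OE library, each split into reads of the mouse and the rat allele. ATAC-seq of WT and mCdx2-OE mESCs and Flag ChIP-seq of mCdx2-OE and rCdx2-OE in mESCs and RMES cells had 1 library per condition. Whether WT cells carried an uninduced transgene or received DOX is not given by the labels, nor do they tell whether the 2 libraries of a group came from separate cultures, so p-values measure the spread between libraries, which may be technical. Each construct was 1 stable line, and the mutant lines as a group cannot be told apart from any difference in line or batch between them and the lines with intact Cdx2.

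Cdx2 is a homeodomain transcription factor that specifies trophectoderm in the early embryo and later patterns the posterior body and the intestine. Forced Cdx2 turns ESCs towards trophoblast, with loss of the pluripotency programme. The 7 genes belong to no single pathway. Trh, Osm and Calca encode secreted signals, Adgra2 a receptor, Liph a secreted lipase, Rasgrp2 an intracellular activator of the small GTPase Rap1, and Ebf1 a transcription factor.

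Levels are CPM, reads scaled to a common library size with TMM factors, which correct for composition, and they compare libraries for a gene, not one gene with another. Read totals were 74960057 and 94686029 in WT mESCs against 12698443 to 24315929 in the 18 libraries with a construct, so low values in induced cells rest on fewer reads than those in WT. Cdx2 itself measured 1.36 and 1.21 CPM in WT, 97.9 and 127 CPM in mCdx2-OE, 70.4 and 67.0 CPM in rCdx2-OE, and 37.2 to 147 CPM, median 63.7, in the 14 mutant libraries. All 18 induced libraries thus lay above WT, and the mutants overlapped both intact constructs when their replicates were pooled. By number the mutants held 61.9 to 147 CPM in replicate 1 and 37.2 to 68.8 CPM in replicate 2, the latter all below mCdx2-OE. Reads of mESC RNA were aligned to the mouse genome, while rCdx2-OE and the mutants carry rat coding sequence. Whether this lowered their Cdx2 counts against mCdx2-OE was not tested. The summed level of 12 trophoblast stem cell markers was 199 CPM in both WT libraries, 846 to 1040 CPM in the 4 libraries of intact Cdx2 and 267 to 524 CPM in the mutants. That list includes Cdx2 itself, and without it the sums were 197 to 198, 718 to 969 and 230 to 381 CPM. For 8 ESC markers the sums were 3723 to 3739, 2351 to 2600 and 2864 to 3675 CPM. The sums of the mutants lay between those of WT and intact Cdx2 on both lists without overlap. Not every gene did so: mean Esrrb was 637 CPM in WT, 478 in mCdx2-OE, 427 in rCdx2-OE and 767 in the mutants. Klf4 and Dppa3 of the ESC list and Tfap2c and Tead4 of the trophoblast list also had mutant means outside that range. The sums of 10 fibroblast feeder markers were 46.2 to 47.4, 21.7 to 28.7 and 3.29 to 8.61 CPM in the same order. Its genes did not move alike. The collagen gene Col1a2 stood at 10.9 CPM in WT, 0.490 in mCdx2-OE, 0.398 in rCdx2-OE and 0.0713 in the mutants. Pdgfrb, the gene of the list with the highest mean, stood at 4.28, 12.8, 15.6 and 3.05 CPM, and Acta2 at 7.76, 6.45, 8.76 and 0.451 CPM. Endothelial marker sums, carried by Pecam1, were 120 to 122, 109 to 127 and 127 to 215 CPM, and blood cell marker sums 2.63 to 5.06 CPM over all 20 libraries. Primitive endoderm marker sums, carried by Lama1, were 44.6 to 47.4, 90.2 to 93.3 and at least 102 CPM, so the summed level was highest in the mutants. Single genes of that list differed from the sum: in the mutants against rCdx2-OE, 1 was called higher and 3 lower. Neural marker sums, carried by Tubb3, were 110 to 111, 49.6 to 69.8 and 51.6 to 80.5 CPM, and 1 of 4 tested neural markers was called in mCdx2-OE against WT. The part of these shifts in the members' values was not tested. In bulk RNA, fewer cells that express a gene and less of its RNA per cell cannot be told apart.

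**Figure D1:**
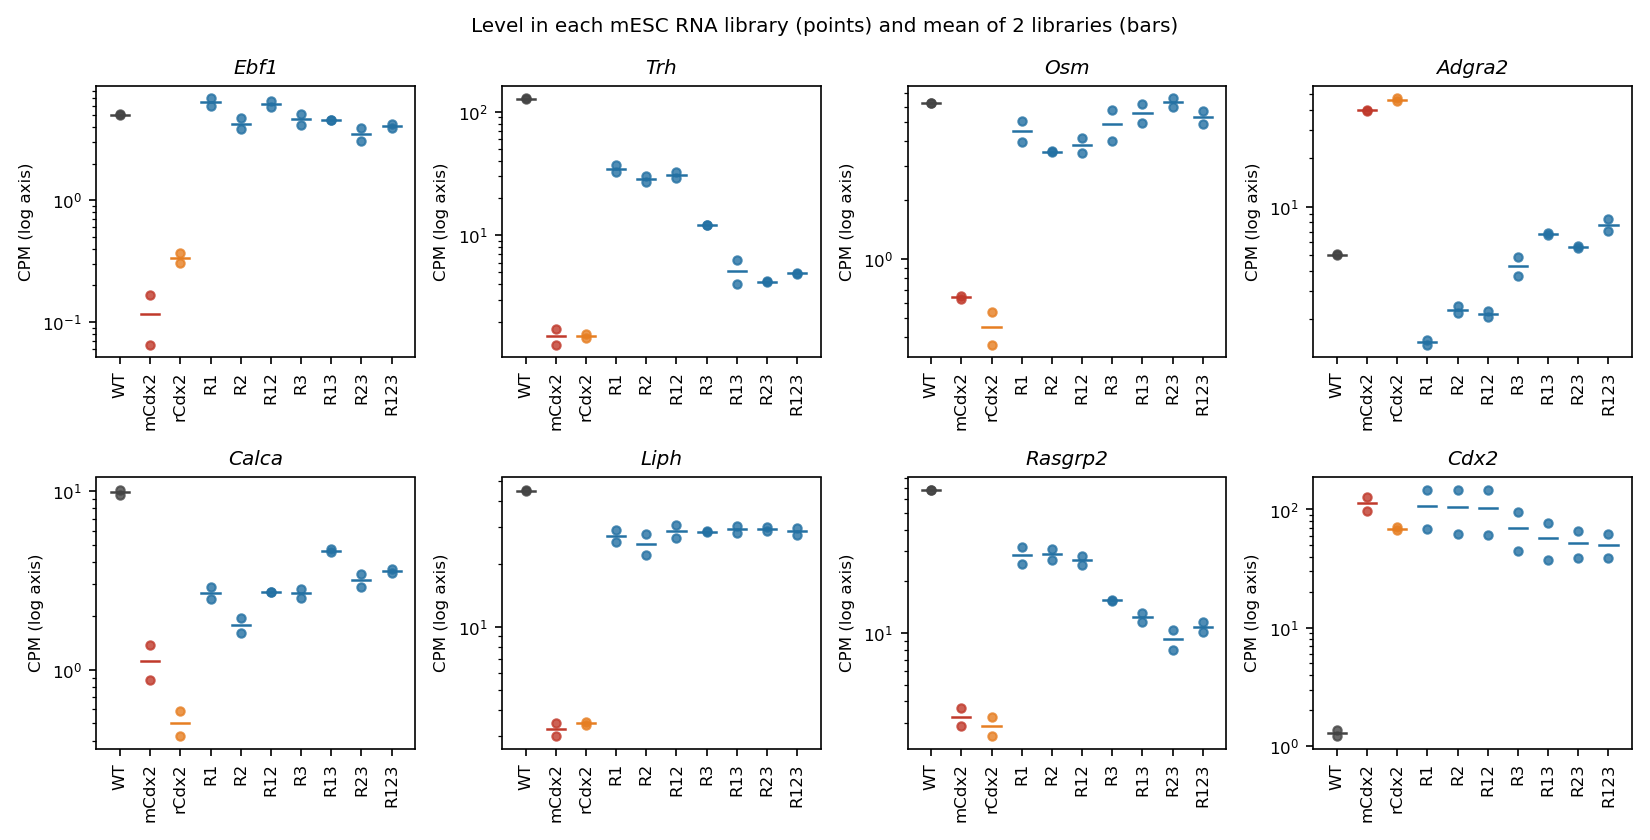
CPM (log axis) of the 7 genes and of Cdx2 in each mESC RNA library, with points for the 2 libraries of a group and a bar at their mean. WT, mCdx2-OE, rCdx2-OE and the 7 mutants stand from left to right, the mutants without change 3 (R1, R2, R12) first. Adgra2 is low in the mutants and high with intact Cdx2, and the other 6 genes show the opposite.

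Every member passed the test in mCdx2-OE against WT, a contrast without rCdx2-OE or mutant libraries, although all 20 libraries share 1 estimate of the spread. As mCdx2-OE and rCdx2-OE cells are much alike, the choice made these calls likely, and they are no separate support for the list. Adgra2 rose and the other 6 fell, at an adjusted p below 0.05 and a change over 2-fold, in the quasi-likelihood test of edgeR, with p-values adjusted by Benjamini-Hochberg over 16000 genes. Of all genes tested, 33.4% were called by this rule, 18.4% higher and 15.0% lower. The rCdx2-OE libraries had the same direction against WT in all 7, given here without a test.

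Trh encodes the precursor of thyrotropin-releasing hormone, a tripeptide best known from the hypothalamus, and its transcript is abundant in ESCs. Its levels were 129 and 126 CPM in WT, 1.76 and 1.30 CPM in mCdx2-OE, and 1.58 and 1.47 CPM in rCdx2-OE. No WT library came near an induced one. The fall with mCdx2 was −6.34 ± 0.23 on the log2 scale (SE; adjusted p = 5.84e-14), the largest of the 7. The 14 mutant libraries ranged from 4.05 to 36.8 CPM with a median of 12.1 CPM, above every library of intact Cdx2 and below both of WT. As a description of the contrast used for the choice, the mean of the mutants stood 2.99 ± 0.22 log2 units above rCdx2-OE, with a log2 fold change of −3.38 ± 0.11 against WT.

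Rasgrp2, also called CalDAG-GEFI, is a calcium- and diacylglycerol-responsive exchange factor that loads Rap1 with GTP and is best known from platelets. It measured 68.2 and 68.3 CPM in WT, 3.64 and 2.86 CPM in mCdx2-OE, and 2.50 and 3.23 CPM in rCdx2-OE. The mutants held 7.95 to 31.9 CPM, median 15.5 CPM, again between the other groups with no overlap. Rasgrp2 fell by 4.37 ± 0.19 log2 units with mCdx2 (adjusted p = 2.96e-12). The mean of the mutants was 2.61 ± 0.18 log2 units above rCdx2-OE, with a log2 fold change of −2.00 ± 0.11 against WT.

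Liph, lipase H, makes lysophosphatidic acid from phosphatidic acid at the cell surface and is known from the hair follicle. WT cells held 45.2 and 44.4 CPM, mCdx2-OE 3.47 and 2.99 CPM, and rCdx2-OE 3.38 and 3.52 CPM. The mutants were tightly grouped at 22.0 to 30.6 CPM, median 28.4 CPM, so that no 2 groups overlapped except the intact constructs with each other. The fall with mCdx2 was −3.78 ± 0.19 (adjusted p = 9.81e-13). Against rCdx2-OE the mutants differed by 3.03 ± 0.17, and against WT by −0.68 ± 0.11.

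Osm encodes oncostatin M, a cytokine of the interleukin-6 family that signals through gp130 as LIF does. Levels were 6.25 and 6.29 CPM in WT, 0.627 and 0.650 CPM in mCdx2-OE, and 0.538 and 0.367 CPM in rCdx2-OE. The mutants, at 3.48 to 6.61 CPM with a median of 4.92 CPM, overlapped WT and lay above every intact library. Osm fell by 3.29 ± 0.34 log2 units with mCdx2 (adjusted p = 4.73e-09), on 15 and 10 reads in the mCdx2-OE libraries. The mean of the mutants was 3.31 ± 0.36 log2 units above rCdx2-OE and differed from WT by −0.40 ± 0.15.

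Ebf1 guides B cell specification and also acts in fat and nerve cells. It measured 5.10 and 5.03 CPM in WT, 0.167 and 0.0650 CPM in mCdx2-OE, and 0.308 and 0.367 CPM in rCdx2-OE, and the mCdx2-OE values rest on 4 and 1 reads. The mutants held 3.09 to 6.90 CPM, median 4.57 CPM, around the WT values. Ebf1 fell by 5.26 ± 0.67 log2 units with mCdx2 (adjusted p = 2.76e-10). The mutants stood 3.82 ± 0.43 above rCdx2-OE and differed from WT by −0.11 ± 0.15, the smallest distance from WT among the 7.

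Calca encodes calcitonin and, by alternative splicing, the neuropeptide CGRP, which gene-level counts do not separate. WT cells held 9.51 and 10.2 CPM, mCdx2-OE 0.878 and 1.37 CPM, and rCdx2-OE 0.423 and 0.586 CPM. The mutants fell between, at 1.60 to 4.74 CPM with a median of 2.85 CPM, and the lowest of them was close to the higher mCdx2-OE library. The change with mCdx2 was −3.18 ± 0.29 (adjusted p = 3.88e-10). The mutants were 2.58 ± 0.36 log2 units above rCdx2-OE and differed from WT by −1.75 ± 0.16.

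Adgra2, also called Gpr124, is an adhesion receptor that together with Reck lets endothelial cells of the brain respond to Wnt7. It was the member that Cdx2 raised: 4.97 and 5.09 CPM in WT, 39.4 and 40.1 CPM in mCdx2-OE, and 45.3 and 47.3 CPM in rCdx2-OE. The 14 mutant libraries held only 1.38 to 8.35 CPM, on both sides of WT and far below intact Cdx2. The rise with mCdx2 was 2.98 ± 0.17 log2 units (adjusted p = 1.60e-12). The mean of the mutants differed from rCdx2-OE by −3.66 ± 0.13 and from WT by −0.46 ± 0.14.

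All 7 genes separated the 14 mutant libraries from the 4 libraries of intact Cdx2 without overlap, 6 with the mutants higher and 1 with the mutants lower. Over all genes tested, 13% had every mutant library above all 4 and 17.2% had every one below. In the contrast used for the choice, 55.6% of all genes were called at an adjusted p below 0.05, so the members belong to a wide difference between the sets of lines. Among the 7136 called genes with a mean of at least 50 reads, their absolute log2 fold changes ranked 19 (Ebf1), 23 (Adgra2), 34 (Osm), 52 (Liph), 58 (Trh), 105 (Rasgrp2) and 111 (Calca). The list has no fixed threshold and leaves out many genes with larger differences: Stra8 ranked first with −5.50, and next to Ebf1 stood Gm15884 with −3.87 and Tnc with −3.77. Of the 2393 genes that fell with mCdx2, 847 were called higher in the mutants than in rCdx2-OE and 273 lower. Of the 2946 that rose, 1988 were called lower and 168 higher. Over all genes, 26.0% were called higher and 29.7% lower. Against mCdx2-OE, which shares the mutant libraries, the mean of the mutants differed by 5.15 ± 0.66 for Ebf1, 3.10 ± 0.17 for Liph, 2.96 ± 0.22 for Trh, 2.89 ± 0.32 for Osm, 2.37 ± 0.17 for Rasgrp2, 1.42 ± 0.27 for Calca and −3.44 ± 0.13 for Adgra2. For Cdx2 the same contrasts gave 0.10 ± 0.37 against rCdx2-OE and −0.61 ± 0.36 against mCdx2-OE. By line, Cdx2 ran from −0.45 (R123-OE) to 0.63 (R1-OE) against rCdx2-OE and from −1.16 (R123-OE) to −0.08 (R1-OE) against mCdx2-OE. The Cdx2 values against mCdx2-OE set rat against mouse coding sequence, with the limit on alignment given above.

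**Figure D2:**
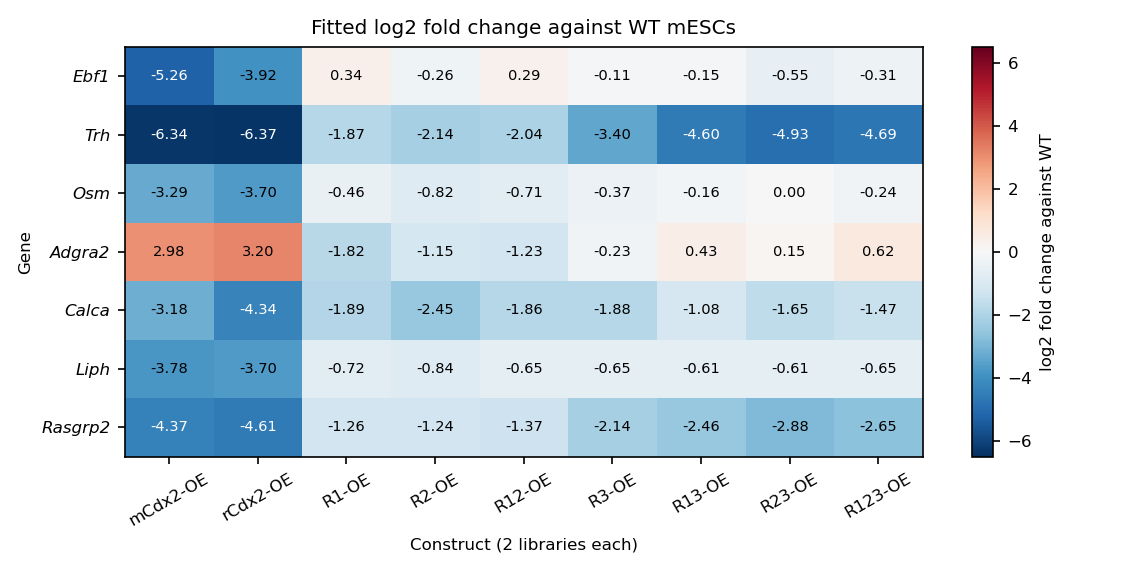
Fitted log2 fold change against WT mESCs for the 7 genes (rows) in each construct (columns), blue for lower and red for higher than WT, each cell from 2 libraries per group. The columns mCdx2-OE and rCdx2-OE are the most strongly coloured in every row, and within the mutants the rows of Trh, Rasgrp2 and Adgra2 change between R12-OE and R3-OE.

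The mutants were not alike in every member. Trh was 32.6 and 36.8 CPM in R1-OE, 27.2 and 30.4 CPM in R2-OE, and 29.1 and 32.7 CPM in R12-OE. With change 3 it was 12.0 and 12.2 CPM in R3-OE, 4.05 and 6.27 CPM in R13-OE, 4.23 and 4.16 CPM in R23-OE, and 4.88 and 4.96 CPM in R123-OE. The 6 libraries without the asparagine deletion thus all lay above the 8 with it, and R3-OE lay between the former and the lines that join the deletion to another change.

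Rasgrp2 had the same order, at 24.8 to 31.9 CPM in R1-OE, R2-OE and R12-OE, 15.4 and 15.5 CPM in R3-OE, and 7.95 to 13.1 CPM in R13-OE, R23-OE and R123-OE. Adgra2 had the reverse order. It measured 1.38 to 2.41 CPM in R1-OE, R2-OE and R12-OE, below WT, then 4.89 and 3.70 CPM in R3-OE, and 5.50 to 8.35 CPM in R13-OE, R23-OE and R123-OE. For these 3 genes, the lines with the deletion were closer to the level under intact Cdx2 than the lines without it.

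The fitted difference between mutants with and without change 3 was −2.38 ± 0.10 for Trh, −1.24 ± 0.09 for Rasgrp2 and 1.64 ± 0.15 for Adgra2. For the other members it was 0.54 ± 0.15 (Calca), 0.47 ± 0.13 (Osm), −0.40 ± 0.13 (Ebf1) and 0.10 ± 0.09 (Liph). With the deletion Ebf1 thus lay nearer to intact Cdx2, Calca and Osm farther from it, and Liph hardly moved. On average, change 1 differed by −0.09 to 0.42 over the 7 genes and change 2 by −0.24 to 0.14. These averages were under 2-fold, but the lines with and without either change also differ in their share of change 3. Among the lines with change 3, mean Trh was over 2-fold lower when change 1 or change 2 was added. Trh was 12.0 and 12.2 CPM in R3-OE, 4.05 and 6.27 CPM in R13-OE, and 4.23 and 4.16 CPM in R23-OE. R123-OE, at 4.88 and 4.96 CPM, lay near R13-OE and R23-OE. The mutant libraries chose the members, and these differences are given without a test. Cdx2 was lower in the lines with change 3, by −0.88 ± 0.27 on the log2 scale. Replicate 1 and replicate 2 of the mutants stand in separately deposited tables, counted with different settings. Cdx2 and Ebf1 were higher in replicate 1 of all 7 lines, Liph and Rasgrp2 in replicate 2 of all 7. The part of the counting in this was not tested. Whether the transgene level had a part in the differences was not tested.

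R123-OE and mCdx2-OE carry the same residues at the 3 sites, and their levels of the members are set side by side without a test, because R123-OE is among the mutants used for the choice. Over all genes tested, 52.2% were called between the mean of the mutants and mCdx2-OE. R123-OE was higher for Ebf1 by 4.95 ± 0.68 log2 units, for Liph by 3.13 ± 0.20, for Osm by 3.05 ± 0.36, for Rasgrp2 by 1.72 ± 0.21, for Calca by 1.71 ± 0.32 and for Trh by 1.65 ± 0.26. For Adgra2 the log2 fold change was −2.36 ± 0.18. Cdx2 differed by −1.16 ± 0.49, again with rat against mouse coding sequence and the limit on alignment given above. The constructs were nearest in Trh and farthest apart in Ebf1.

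RMES cells put the mouse and the rat copy of each gene into 1 nucleus. The libraries with mouse and rat Cdx2 served together as the induced group. Cdx2 reads followed the transgene: on the mouse allele 4187 and 4541 reads in WT, 40590 with mCdx2 and 186 with rCdx2, and on the rat allele 12384 and 13178 in WT, 1770 with mCdx2 and 33680 with rCdx2. WT RMES cells thus already held Cdx2 RNA from both genomes, and the allele without a matching transgene fell in each induced library. ESC marker sums went from 4780 CPM in WT to 1981 to 2019 CPM with Cdx2 on the mouse allele, and trophoblast marker sums from 394 to 413 CPM to 1252 to 2041 CPM, the latter list including Cdx2 itself (267 to 283 and 1074 to 1247 CPM without it). Also on the mouse allele, primitive endoderm marker sums went from 236 to 242 CPM in WT to 52.2 to 55.0 CPM, endothelial sums from 77.3 to 79.9 CPM to 28.2 to 34.7 CPM, and neural sums from 168 to 174 CPM to 93.2 to 96.2 CPM. By gene, 4 primitive endoderm markers were called higher there and 1 lower. Of the endothelial markers 2 were called higher and 1 lower, and of the neural markers 2 were called, both lower. The part of these shifts in the members' values was not tested.

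All 7 members passed the test on the mouse allele, 2 higher (Adgra2, Calca) and 5 lower. The background was 44.5% of 16887 genes in either direction, 28.3% higher and 16.1% lower. On the rat allele 5 of the 6 members in the table passed, 4 higher and 1 lower, against a background of 42.5%, with 28.3% higher and 14.2% lower. Liph is not listed under that symbol in the rat table and was not analysed there. The change of the rat allele differed from that of the mouse allele for all 6, at an adjusted p below 0.05 in a fit with each library as a block, where 62.8% of 13605 genes were called.

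Trh fell on both alleles. The mouse allele had 55555 and 63343 reads in WT, 2750 with mCdx2 and 1817 with rCdx2, a log2 fold change of −5.00 ± 0.13 (adjusted p = 1.78e-11), or 31.9-fold lower. The rat allele had 5948 and 6976 reads in WT but only 26 and 22 with mCdx2 and rCdx2, a change of −8.47 ± 0.22 (adjusted p = 1.09e-17), or 355-fold lower. The difference between the changes, rat minus mouse, was −3.46 ± 0.24. Both Cdx2 proteins gave nearly the same rat allele level.

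Osm went opposite ways. Its mouse allele fell from 183 and 155 reads in WT to 3 with mCdx2 and 5 with rCdx2 (−5.65 ± 0.54, adjusted p = 1.16e-08). Its rat allele had 13 and 6 reads in WT and 32 and 35 with Cdx2, a rise of 1.40 ± 0.46 (adjusted p = 0.00807) on low counts. This rise was lost in DESeq2 (adjusted p = 0.0972) and without the second WT library (adjusted p = 0.135). The difference between alleles was 7.06 ± 0.76 (adjusted p = 1.47e-13), the largest among the members.

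Most Ebf1 reads were from the mouse allele, with 377 and 437 reads in WT and 23 and 21 with mCdx2 and rCdx2 (−4.49 ± 0.26, adjusted p = 3.60e-10). The rat allele held 16 and 14 reads in WT and 11 and 18 with Cdx2, and its change of −0.45 ± 0.45 did not pass (adjusted p = 0.352). The difference between alleles was 4.04 ± 0.50 (adjusted p = 9.14e-09). The rat allele's WT and induced libraries overlapped.

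Rasgrp2 also differed in direction. The mouse allele had 102 and 108 reads in WT and 66 and 56 with mCdx2 and rCdx2, a fall of 1.08 ± 0.24 log2 units (adjusted p = 0.000584) that came to −0.96 without the rCdx2-OE library, under the 2-fold limit. The rat allele had 14 and 19 reads in WT and 85 and 82 with Cdx2, a rise of 1.93 ± 0.34 (adjusted p = 2.69e-05). The alleles differed by 3.01 ± 0.42 (adjusted p = 1.24e-08).

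Adgra2 rose on both alleles, as in mESCs. Mouse reads went from 24 and 30 in WT to 887 and 1098 (4.90 ± 0.23, adjusted p = 1.06e-10), and rat reads from 59 and 66 to 212 and 262 (1.52 ± 0.20, adjusted p = 2.63e-06). The rise was 30.1-fold on the mouse and 2.87-fold on the rat allele, with a difference of −3.38 ± 0.28 (adjusted p = 1.83e-14).

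Calca rose in RMES cells, whereas it fell in mESCs. The mouse allele went from 3 and 2 reads in WT to 82 and 106, a ratio of 30.7 with a 95% counting interval of 12.9 to 95.5, and a log2 fold change of 4.88 ± 0.69 (adjusted p = 4.23e-07). The rat allele went from 15 and 17 reads to 124 and 141 (2.64 ± 0.32, adjusted p = 2.88e-07). In CPM the mouse allele started at 0.0558 to 0.0925 in WT RMES cells against 9.51 to 10.2 in WT mESCs, and ended at 1.95 to 2.53 against 0.878 to 1.37 in mCdx2-OE mESCs. These scales were set in separate tables, so levels between them are only side by side. The difference between alleles was −2.23 ± 0.81 (adjusted p = 0.00528) and was lost without the second WT library (adjusted p = 0.0742).

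Liph fell on the mouse allele of RMES cells much as in mESCs, from 1404 and 1633 reads in WT to 213 with mCdx2 and 210 with rCdx2. The log2 fold change was −3.14 ± 0.11 (adjusted p = 1.85e-11), or 8.80-fold. Of the 7 members, 6 therefore had the same direction on the RMES mouse allele as in mESCs, and Calca did not. In every member and allele except rat Ebf1, the read numbers under mouse and rat Cdx2 were closer to each other than to those of WT.

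**Figure D3:**
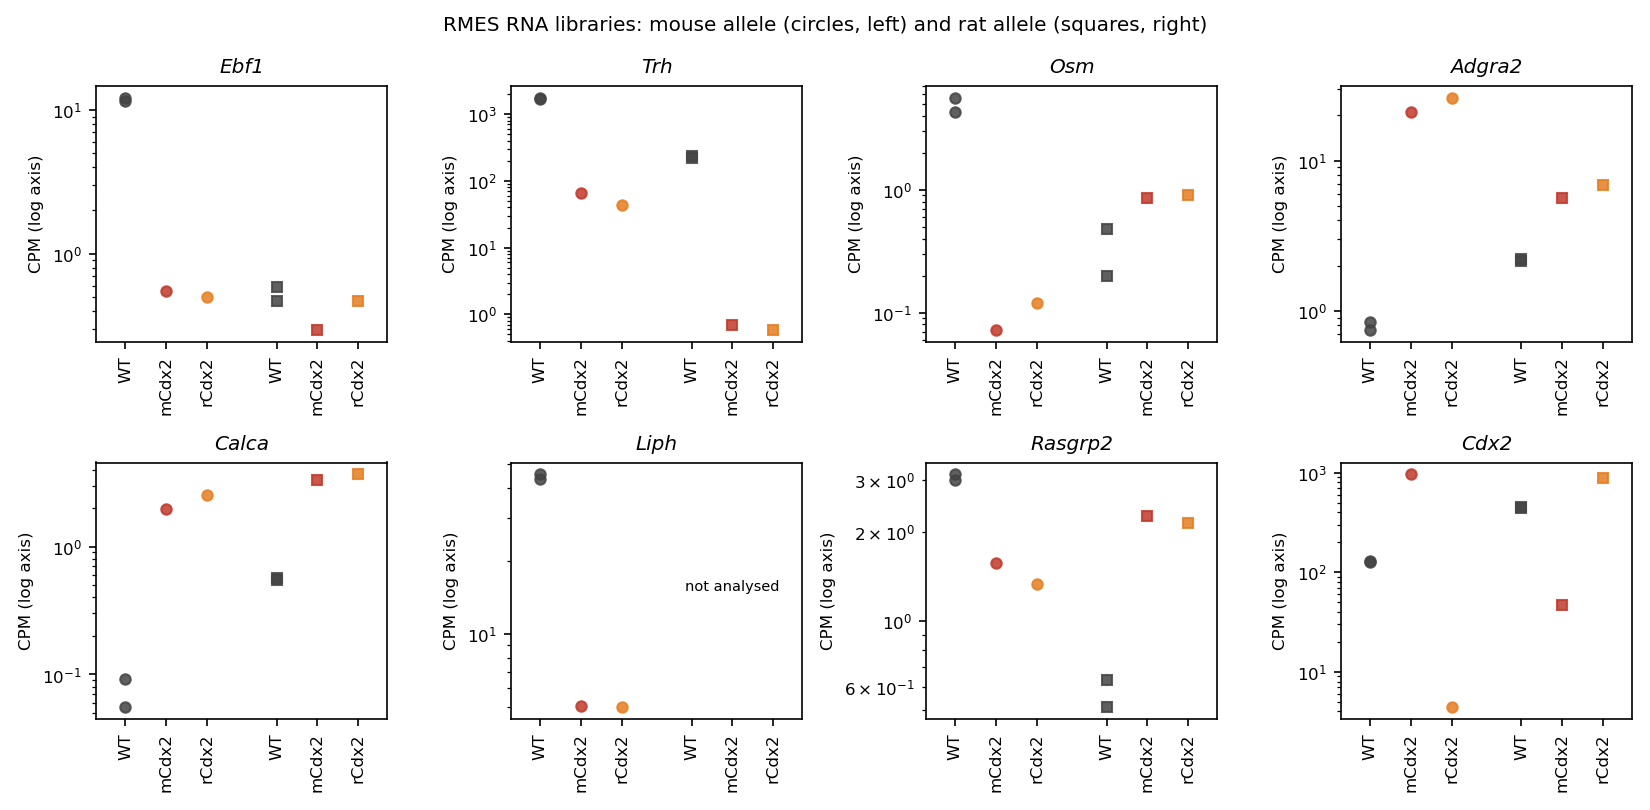
CPM (log axis) of the 7 genes and of Cdx2 in the 4 RMES RNA libraries, with circles on the left for the mouse allele and squares on the right for the rat allele. The 2 WT points and the points of mCdx2 and rCdx2 lie apart in each member except rat Ebf1, and Osm and Rasgrp2 move down on the mouse allele and up on the rat allele.

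Chromatin near the genes was read from the deposited peak tables, over the 60 kb centred on each gene start plus the gene body, in mouse coordinates of the build mm10 (GRCm38). Reads were scaled to the same total in peaks, and with 1 library per condition there is no test. Of 71 ATAC peaks near the members, 31 were over 2-fold lower in mCdx2-OE than in WT and 0 over 2-fold higher. Across all 85394 peaks with enough reads, 20.5% were lower and 13.7% higher. The median log2 ratio was −0.91 near the members and −0.13 over all peaks. Without scaling for depth, 20 of 70 peaks near the members were over 2-fold lower and 2 higher. In a window of 200 kb centred on the gene start, which left out gene body beyond it, 31 of 129 were lower and 8 higher. The lower share of 24.0% was close to that over all peaks. These are not the same peaks: for Ebf1 this window left out part of the gene and held 6 lower peaks of 13. Adgra2, which rose, had 1 of its 6 peaks lower.

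Ebf1, a gene of 390.8 kb at chr11:44617317-45008091 on the plus strand, had 12 of 15 peaks lower. The peak over its start changed by −0.92 (98 reads in mCdx2-OE, 138 in WT), and an intronic peak 92.1 kb into the gene had 9 reads in mCdx2-OE against 54 in WT (−2.87). Osm (chr11:4236420-4241026, plus strand) had 6 of 15 lower, among them the peak over its start at chr11:4235298-4238194, with 68 reads against 240 (−2.24). Rasgrp2 (chr19:6399340-6415216, plus strand) had 5 of 16 lower, with −1.29 at the start and −3.12 at an exonic peak 8.9 kb downstream on 6 reads against 45. At these 3 genes the peaks over the gene body were mostly lower, as was the RNA.

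Liph (chr16:21953817-21995663, minus strand) had 3 of 10 lower. Its start held 98 reads in mCdx2-OE and 77 in WT, a log2 ratio of −0.09 after scaling, while a peak 12.3 kb into the gene had 34 against 207 reads (−3.00). Trh (chr6:92242061-92244650, minus strand) had 3 of 7 lower, the nearest being 2.4 kb upstream at chr6:92245930-92248166 with 110 against 278 reads (−1.77), and −0.51 at its start. Calca (chr7:114631478-114636357, minus strand) had 2 peaks, −0.58 at the start and −2.39 at 2.5 kb upstream on 11 reads against 46. Adgra2 (chr8:27085583-27123436, plus strand) had 0.42 at its start (173 against 95 reads) and 0.99 at a peak upstream of the gene (63 against 23), both short of 2-fold. As at Ebf1 and Rasgrp2, the start of Liph, Trh and Calca changed less than another peak near the gene.

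Cdx2 binding peaks, called on the Flag ChIP libraries, were fewer. Near the members lay 26 mESC peaks, 17 of them in introns of Ebf1, 4 at Liph, 2 at Calca, 1 each at Trh, Adgra2 and Rasgrp2 and 0 at Osm. Ebf1 counts many because of its length. For reference, 75.5% of 15911 genes had a Cdx2 peak within the 60 kb, and 97.0% an ATAC peak. Which columns of the peak tables hold mouse and which rat Cdx2 was read from abbreviated column names. Of the 26, 1 differed over 2-fold between the proteins, an intronic Ebf1 peak 149.0 kb into the gene with 28 reads for mCdx2 and 11 for rCdx2, against 0.912% of all 91665 peaks. In RMES cells 24 peaks lay near the members on the mouse genome, 0 of them differed over 2-fold, against 2.08% of 74650, and 19 of the 26 mESC peaks overlapped a RMES peak. The mutants have no binding data, so these peaks do not bear on the difference that chose the genes.

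For Trh, Ebf1, Calca and Liph, the Cdx2 peak with most reads at the gene in mESCs is given here. At Trh the peak 10.6 kb upstream had 143 reads with mCdx2 and 110 with rCdx2 in mESCs, and 107 and 71 in RMES cells. In Ebf1 an intronic peak 323.5 kb from the start had 208 and 181, and 194 and 129. In Calca the peak in an intron 4.3 kb from the start had 66 and 58, and 84 and 55. Both proteins bound each of these sites in both kinds of cell. A peak upstream of Liph, at chr16:22008820-22009449, had 87 and 88 reads in mESCs and lies under an ATAC peak that gained signal (548 reads in mCdx2-OE, 204 in WT, log2 ratio 0.98). That site is the promoter of the neighbouring gene Senp2, which did not pass in mCdx2-OE mESCs at 2-fold (−0.21). Only 3 of the 71 ATAC peaks near members overlapped a mESC Cdx2 peak, at Adgra2, Liph and Rasgrp2, and none of these 3 was lower by 2-fold. Among all ATAC peaks 14.6% overlapped one, among those over 2-fold higher 58.3%, and among those over 2-fold lower 2.97%.

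The middle 151 bases of these 4 peaks were read from the reference genome on the plus strand. They are given because each peak had most mESC Cdx2 reads at its gene. Capitals mark TTTAT on either strand, the core of the sequence Cdx2 prefers, and neighbouring cores may join.
Trh, chr6:92255220-92255370: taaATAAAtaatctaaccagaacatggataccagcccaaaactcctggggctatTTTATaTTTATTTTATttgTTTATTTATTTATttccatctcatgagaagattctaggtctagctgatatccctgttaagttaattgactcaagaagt
Ebf1, chr11:44940761-44940911: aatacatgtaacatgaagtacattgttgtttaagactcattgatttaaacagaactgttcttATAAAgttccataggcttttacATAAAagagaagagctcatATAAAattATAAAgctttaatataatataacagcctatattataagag
Liph, chr16:22009059-22009209: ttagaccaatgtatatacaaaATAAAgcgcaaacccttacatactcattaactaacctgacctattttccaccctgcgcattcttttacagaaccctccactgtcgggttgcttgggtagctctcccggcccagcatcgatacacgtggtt
Calca, chr7:114632029-114632179: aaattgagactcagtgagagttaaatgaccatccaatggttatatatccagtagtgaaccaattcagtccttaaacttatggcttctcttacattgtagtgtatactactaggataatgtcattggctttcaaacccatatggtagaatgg

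The Trh window held 7 cores, the Ebf1 window 4, the Liph window 1 and the Calca window 0. In windows of this size, 21 of the 26 mESC peaks near members (80.8%) and 83.4% of all mESC Cdx2 peaks held the core, against 26.1% of ATAC peaks. The longer TTTATNG, searched on both strands and including the core, was in 7 of 26 (26.9%) near the members, in 38.6% of all mESC Cdx2 peaks and in 7.65% of ATAC peaks. RefSeq promoters, from 250 bases before to 50 after the start, matched 5 of the 7 genes. Liph was the member whose promoter held TTTATNG, a sequence found in 10.9% of all promoters, and it is printed 5′ to 3′ on the minus strand (GRCm38.p6) because its start kept its ATAC signal while the RNA fell.
Liph promoter, chr16:21995493-21995792: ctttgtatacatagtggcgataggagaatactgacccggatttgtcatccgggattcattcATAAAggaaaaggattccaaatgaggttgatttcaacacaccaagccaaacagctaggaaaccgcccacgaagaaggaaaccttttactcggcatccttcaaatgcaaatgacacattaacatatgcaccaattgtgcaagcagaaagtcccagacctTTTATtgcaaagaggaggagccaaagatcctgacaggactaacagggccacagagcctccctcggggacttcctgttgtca

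The Liph promoter holds 2 cores, in capitals, and TTTAT is in 40.0% of all promoters. These matches describe letters only and are not evidence of binding.

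**Figure D4:**
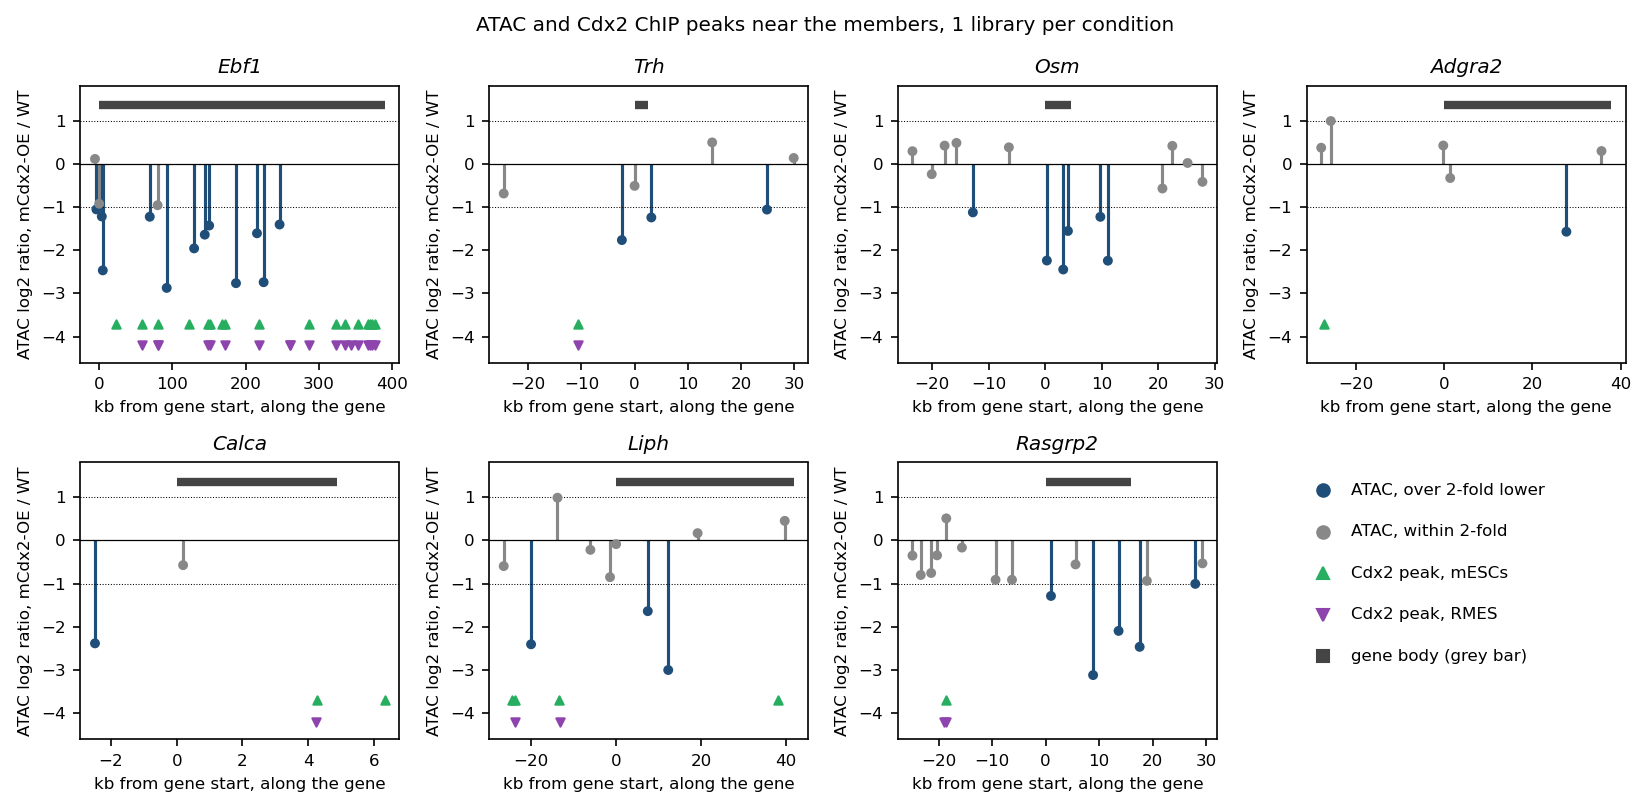
ATAC log2 ratio of mCdx2-OE over WT (vertical axis) at each peak near the 7 genes, by distance in kb from the gene start along the gene (horizontal axis), with dark points over 2-fold lower, grey points within 2-fold, dotted lines at 2-fold and triangles for Cdx2 peaks in mESCs (green) and RMES cells (purple). Dark points cluster in the body of Ebf1 and near the start of Osm and past that of Rasgrp2, and no point lies above the upper dotted line.

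Genes that work with the members changed in both directions in mCdx2-OE mESCs. In the list of Ebf factors and partners, 6 of 9 tested genes were called, 3 higher and 3 lower. Its paralogs Ebf4 (5.04 ± 0.27, adjusted p = 4.49e-11) and Ebf3 (3.49 ± 0.52, adjusted p = 1.08e-05) rose while Ebf1 fell, and Zfp423, a zinc finger partner of Ebf1, fell by 2.22 ± 0.19 (adjusted p = 9.23e-09). Ebf4 and Ebf3 rose also on both RMES alleles, Ebf4 by 3.83 ± 0.25 on the mouse and 2.44 ± 0.21 on the rat allele (adjusted p = 2.54e-09 and 1.51e-08). Ebf4 stood at 0.354 CPM in WT, 11.8 in mCdx2-OE, 14.4 in rCdx2-OE and 2.22 to 4.89 in the mutants.

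Among 21 tested genes of the IL-6 family and LIF signalling, 5 were called in mCdx2-OE, 4 higher and 1 lower. Lif, whose start lies 21.1 kb from that of Osm and whose product keeps mESCs undifferentiated, rose by 1.70 ± 0.16 (adjusted p = 1.16e-08). It rose on both RMES alleles too, by 1.57 ± 0.14 and 1.99 ± 0.16 (adjusted p = 3.48e-07 and 2.97e-09). In mESCs Lif stood at 8.60 CPM in WT, 27.8 in mCdx2-OE, 32.9 in rCdx2-OE and 6.53 to 12.1 in the mutants. These neighbouring cytokine genes thus moved in opposite directions on the mouse genome. The kinases Jak1 (2.24 ± 0.12, adjusted p = 3.39e-13) and Jak2 (2.48 ± 0.16, adjusted p = 3.30e-10), which signal below gp130, also rose, and Gbx2, a target of LIF signalling in mESCs, fell by 2.32 ± 0.19 (adjusted p = 1.11e-08).

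In the list of Adgra receptors and the Wnt7 receptor complex, 6 of 14 tested genes were called, 3 higher and 3 lower. Reck, the partner of Adgra2, rose by 1.18 ± 0.16 (adjusted p = 2.58e-07), and the ligand Wnt7b by 3.55 ± 0.28 (adjusted p = 2.84e-09). Both rose on the RMES alleles as well, Reck by 2.47 ± 0.12 and 3.25 ± 0.13 (adjusted p = 2.90e-10 and 9.55e-13). The Wnt target genes Sp5 (−2.63 ± 0.24, adjusted p = 2.40e-08) and Lef1 (−2.48 ± 0.22, adjusted p = 2.99e-08) fell. In the mutants Reck held 12.2 to 20.3 CPM, between 11.4 in WT and 25.8 in mCdx2-OE.

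The lysophosphatidic acid list had 7 of 14 called, 5 higher and 2 lower, with Lipg, a related lipase, up by 4.86 ± 0.28 (adjusted p = 3.09e-11) and the receptor gene Lpar4 down (−2.04 ± 0.26, adjusted p = 2.19e-06). Of 19 Ras and Rap1 regulators, 6 were called, 3 in each direction. Rasgrp1, the paralog of Rasgrp2 known from T cells, fell by 2.02 ± 0.21 (adjusted p = 1.43e-07), and Rapgef4, a cAMP-responsive Rap1 exchange factor, rose by 4.06 ± 0.27 (adjusted p = 4.42e-11). On the RMES mouse allele Rasgrp1 rose instead, by 2.84 ± 0.35 (adjusted p = 1.40e-06). In the calcitonin list 2 of 5 were called, both lower (Adm, Ramp3), and in the TRH list 1 of 3, Pam, which amidates peptide hormones, higher by 1.65 ± 0.16 (adjusted p = 3.60e-09). The share called over the 7 lists was lowest in the IL-6 list and highest in the Ebf list, against 33.4% for all genes, and the list medians ran from −0.75 to 0.34 against −0.03.

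Over the 18 libraries with a construct, genes whose pattern was most like that of a member had Pearson's r of log2 CPM from 0.95 to 0.99 among 13157 genes, a description shaped by the gap between mutants and intact Cdx2 that those libraries share. The closest were Cd24a for Ebf1 (0.98), Vim for Trh (0.99), Epb41l4b for Osm (0.99), Itga5 for Adgra2 (0.98), Trps1 for Calca (0.96), Trpm1 for Liph (0.99) and 1700097N02Rik for Rasgrp2 (0.99). Among the members themselves, Liph and Osm were closest (0.98), followed by Ebf1 and Liph (0.97) and by Trh and Rasgrp2 (0.96). Adgra2 ran against the other 6, and among those Trh and Calca were the least alike (0.44).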

How the data were processed

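RNA was measured in 20 mESC and 4 RMES libraries, chromatin in 2 ATAC-seq and 4 ChIP-seq libraries. Per the paper's methods, the authors aligned RNA reads with STAR 2.7.0d to mm10 (RMES reads to mm10 and rn6, kept by edit distance) and deposited featureCounts read counts per gene, counted by strand. The first mESC table lists 19919 genes and the second 34923, and the 19919 in both were used; the second table counted complete, non-chimeric pairs only. ATAC and ChIP tables deposited by the authors hold raw read counts per merged MACS2 peak; no input library was used, and the rat-genome ChIP table was not used here. The genes that overlap Ebf1, Adgra2 and Rasgrp2 lie on the opposite strand.

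Counts were tested with edgeR 4.0.16 (R 4.3.3): TMM scaling, filterByExpr, quasi-likelihood test, Benjamini-Hochberg adjustment over all genes tested, with 1 fit for all 20 mESC libraries and 1 per RMES allele. A gene was called at an adjusted p below 0.05 and, against WT, a log2 fold change over 1 in size. Standard errors come from the fitted dispersions, with the quasi-dispersion taken as at least 1. Peak ratios used counts scaled to the mean total in peaks with 1 added, and ATAC peaks needed 40 scaled reads. Motifs were searched in GRCm38.p6 and RefSeq promoters with pysam 0.24.0. DESeq2 1.42.0, other scaling, no filter, a replicate block and leaving out libraries were alternatives. The fits were tested on simulated data. The members and gene lists were chosen with earlier results of these data known. The text names the 7 members, Cdx2, 2 to 4 genes of each list and the nearest neighbours in rank, position or pattern. Intervals cover counting error only.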

Additional observations from a re-analysis of the deposited data

Results flagged for a closer look

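The response to Cdx2 differed between the RMES alleles for 6 members in the fit that tests the difference itself, rat minus mouse, in the quasi-likelihood test of edgeR, adjusted by Benjamini-Hochberg. The differences in log2 fold change were 7.06 for Osm, 4.04 for Ebf1, 3.01 for Rasgrp2, −2.23 for Calca, −3.38 for Adgra2 and −3.46 for Trh. With 62.8% of all genes called in this contrast, a difference between alleles was common. The alleles were counted in separate tables against different genomes, so mapping and gene models differ with the allele, and their part was not tested. Osm and Rasgrp2 changed sign between the alleles, while Trh and Adgra2 kept it.

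Calca stood out by direction: its log2 fold change was −3.18 in mCdx2-OE mESCs and 4.88 on the RMES mouse allele, with every library of each setting on the same side. This difference between cell types was not tested. Calca started from 2 and 3 reads in WT RMES cells and from 671 and 890 reads in WT mESCs.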

How the results depend on the processing

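The members' RNA differences kept their direction under every alternative run. In mCdx2-OE against WT all 56 values over 8 alternatives stayed called, and genome-wide calls ran from 4982 to 6272 around 5339. On the RMES alleles calls ran from 7219 to 8086 (mouse) and 6016 to 6690 (rat), and 4 member calls were lost, as given with Rasgrp2, Osm and Calca above. Genes called between the mutants and rCdx2-OE numbered 8903, and 4988 to 7960 when libraries were left out (4988 without replicate 1 of every group). Between the mutants and mCdx2-OE they numbered 8350, and 4388 to 6022. Against rCdx2-OE, 3 of 56 member values moved by more than the standard error of the main contrast. Osm went to 3.75 without replicate 1 and 3.69 without rCdx2-OE replicate 1, and Rasgrp2 to 2.41 without the latter. Against mCdx2-OE, 8 of 42 values moved by more than that error. Without replicate 1 they went to 5.98 (Ebf1), 1.08 (Calca), 3.29 (Liph) and 2.67 (Rasgrp2). Without replicate 2 they went to 1.74 (Calca) and 2.11 (Rasgrp2), and Trh also moved in each case. ATAC peaks near members over 2-fold lower numbered 31 of 71, 20 of 70 without scaling and 27 of 71 with 5 added, with 0, 2 and 0 higher. In the 200 kb window, which left out gene body beyond it, 31 of 129 were lower and 8 higher.

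With the replicate number as a block, calls were 5331 (mCdx2-OE against WT), 9144 (mutants against rCdx2-OE) and 8572 (mutants against mCdx2-OE), and all 7 members stayed called in mCdx2-OE against WT. Deviations of same-numbered libraries had r over 0.1 in 21 of 45 pairs of groups: 20 of 21 between mutants, 0 of 21 between a mutant and another group and 1 of 3 among the rest. As not every pair was over 0.1, the numbers were not taken to pair the libraries, although the mutants' replicates moved together by number. No paired analysis was possible between induced and WT RMES cells because they share at most 1 number; the allele difference had the library as a block. Holding the quasi-dispersion at 1 or above, chosen after seeing the data, gave 5311, 7499, 6215 and 7968 calls for mCdx2-OE in mESCs, the mouse allele, the rat allele and the allele difference. Low read numbers limit Ebf1 in mCdx2-OE mESCs, Calca on the WT mouse allele and Osm and Ebf1 on the rat allele, and single libraries limit all peak ratios.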

Other observations

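Genes that start close to the members moved in their own ways. Nrxn2, a presynaptic adhesion gene that starts 19.4 kb from Rasgrp2, rose on both RMES alleles, by 2.50 log2 units on the mouse and 5.54 on the rat allele (edgeR, adjusted p = 1.23e-07 and 8.26e-10), while its change of −0.93 in mCdx2-OE mESCs was under 2-fold. Pygm, the muscle glycogen phosphorylase on the other side of Rasgrp2, rose by 1.75 on the mouse allele (adjusted p = 2.73e-05) and measured 0.15 on the rat allele and −0.84 in mESCs, neither called. Senp2, a SUMO protease gene next to Liph, fell by 1.20 log2 units on the mouse allele (adjusted p = 1.11e-09) and measured 0.17 on the rat allele, under 2-fold. Rbsn, next to Trh, passed the 2-fold limit in no comparison, with −0.11 in mESCs, −0.68 on the mouse and −0.93 on the rat allele.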
